A study of Mus musculus with 6 samples.

Results

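Focal adhesions are the sites at which integrins, the matrix receptors of the cell surface, are coupled to the actin cytoskeleton. Talin binds the integrin tail and, under tension, recruits vinculin. Kindlin binds the same tail, and the pseudokinase ILK with its partners PINCH and parvin forms a further bridge to actin, while focal adhesion kinase, paxillin and zyxin carry signalling and respond to force. In the glomerulus, the filtering unit of the kidney, podocytes are held on the basement membrane by integrins linked in this way. The genes described here are the 10 named as core members, which were found by symbol: Tln1, Tln2, Vcl, Ilk, Lims1, Parva, Fermt2, Ptk2, Pxn and Zyx, 10 of 54838 gene identifiers in the count files. All 10 were among the 17086 genes that passed the filter on low counts, and the lowest count of any of them was 269, for Ilk in CTRL 162.

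Glomerular RNA of mice aged 3 weeks was sequenced in 6 libraries, 3 labelled KO and 3 labelled CTRL. Those labelled KO are numbered 146, 147 and 148 (genotype bPIX -/-, deleted in podocytes only), and those labelled CTRL 157, 162 and 163 (wild type). bPIX is the product of Arhgef7, which activates the GTPases Rac1 and Cdc42 and is itself recruited to focal adhesions through the GIT proteins and paxillin. The sources used here name neither the Cre driver of the deletion nor the method of glomerular isolation. The names of the count files carry the opposite group, and another library's number, for all 6 libraries. The sample labels were followed, and if the file names were right each direction below would be turned round at the same size.

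Gene counts ranged from 40246366 to 51917945 in the libraries labelled KO and from 39841396 to 46187515 in those labelled CTRL. Arhgef7 did not separate the groups, at 133, 89.6 and 85.9 CPM (gene counts scaled to library size) in KO 146, 147 and 148 and 91.9, 94.1 and 88.4 CPM in CTRL 157, 162 and 163, a whole-gene count that does not check a deletion made in podocytes alone. Defining markers of podocytes were present in every library. All 20 listed podocyte markers had higher levels in each library labelled KO than in any labelled CTRL, as had 21.9% of all tested genes. The mean level of these markers was 7.93, 6.69 and 6.18 log2 CPM in KO 146, 147 and 148 and 5.18, 5.04 and 5.34 in CTRL 157, 162 and 163. Proximal tubule markers ran the other way, at 8.88, 9.42 and 9.60 log2 CPM in the libraries labelled KO against 9.98, 9.90 and 9.90 in those labelled CTRL. In every library the proximal tubule mean was above the podocyte mean. Tubule RNA was thus present throughout, and the levels below are those of mixed tissue rather than of glomerular cells alone. KO 146 stood apart, with the highest glomerular and the lowest tubule marker means of the series and 11.94% mitochondrial counts against 16.54% to 19.25% in the other 5 libraries. In bulk samples such as these, fewer cells of a type and less RNA per cell cannot be told apart.

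Promoter sequences are shown for Vcl and Fermt2, the pair of core genes with the highest fold changes. RefSeq start sites on GRCm38.p6 gave 9 promoters for 6 of the 10 genes (Tln1, Vcl, Ilk, Lims1, Fermt2 and Zyx), and Tln2, Parva, Ptk2 and Pxn had none in the table. The 250 bases before each start were searched on both strands for the CArG box, the A- and T-rich element bound by serum response factor, and for GGAATG, the core of the element bound by TEAD factors. A CArG box was present in 2 of the 9 promoters, those of Vcl and Fermt2, and in 1.47% of 32851 mouse promoters of the same length. GGAATG was present in the Vcl promoter alone among the 9 and in 12.6% of all of them, and the pair of motifs did not overlap. The first 150 bases of each window are given 5′ to 3′, from chr14:20929148-20929297 on the plus strand for Vcl and chr14:45530166-45530315 on the minus strand for Fermt2, with motif matches in capitals.
Vcl: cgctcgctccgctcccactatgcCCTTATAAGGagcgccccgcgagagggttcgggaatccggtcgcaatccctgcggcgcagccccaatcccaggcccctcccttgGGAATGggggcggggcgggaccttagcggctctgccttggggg
Fermt2: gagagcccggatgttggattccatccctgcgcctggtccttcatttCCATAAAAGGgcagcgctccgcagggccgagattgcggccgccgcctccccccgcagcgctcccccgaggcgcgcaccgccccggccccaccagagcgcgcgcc
In Vcl the box CCTTATAAGG begins 227 bases before the start and in Fermt2 the box CCATAAAAGG begins 204 bases before it. A match of letters describes these windows and shows neither binding nor a cause of any difference in counts.

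Among the core genes, 8 had positive and 2 negative log2 fold changes, where positive means higher in the libraries labelled KO. The median was 0.38, against -0.006 over all tested genes, of which 49.3% were positive. Without KO 146 the median of the core genes was 0.166. None of the 10 passed edgeR's quasi-likelihood test at a Benjamini-Hochberg adjusted p below 0.05, a threshold that 1.01% of all tested genes passed. At an unadjusted p below 0.05, 5 of the 10 were higher, as were 17.5% of all genes, and 1 was lower, as were 11.8%. The 3 libraries labelled KO lay above all 3 labelled CTRL for 7 of the 10 genes and below them for 1, where 21.9% and 19.6% of all tested genes did so. DESeq2 called 1 core gene, Vcl, higher and 0 lower, while it called 11.7% of all genes higher and 5.65% lower. limma-voom called 0 of the 10, and 0.796% of all genes. At an unadjusted p below 0.05 it had 3 of the 10 higher and 1 lower, with 15.7% and 12.4% of all genes.

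**Figure D1:**
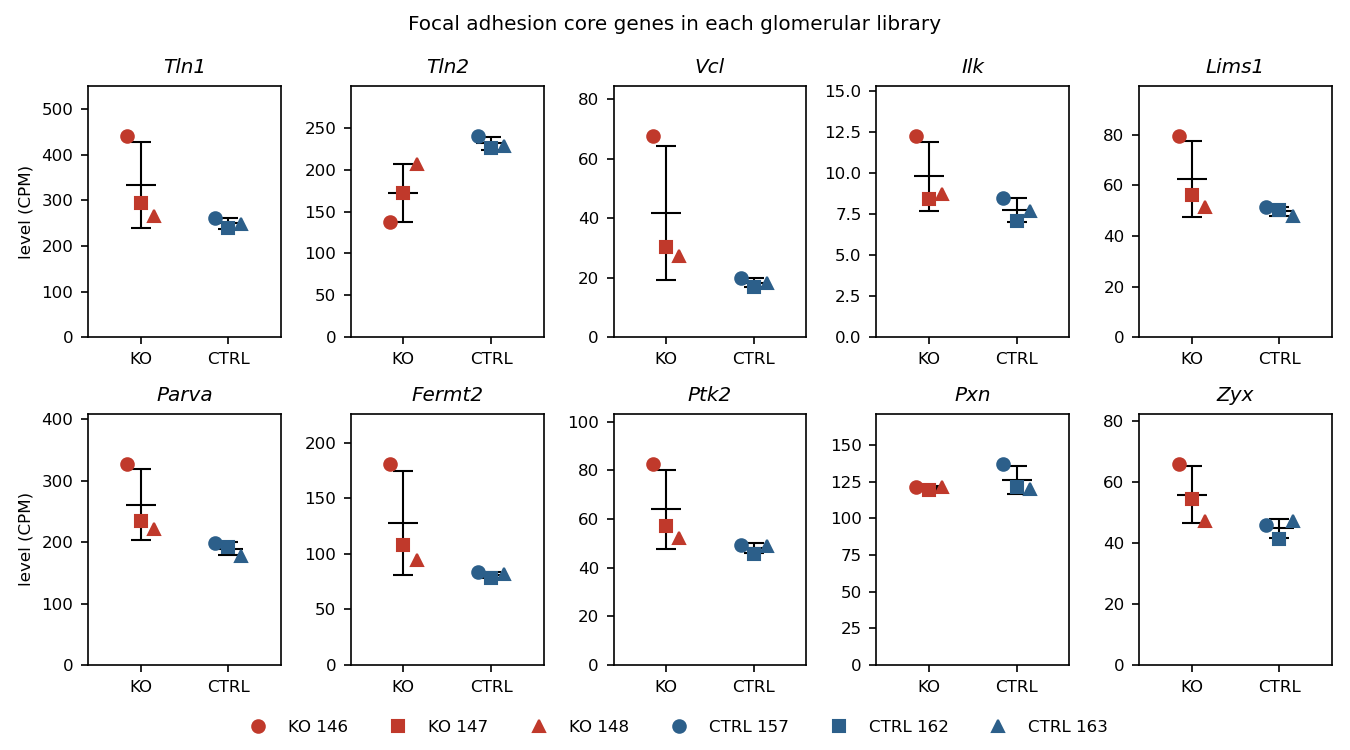
Level of each core gene in CPM (y axis, from 0) in the libraries labelled KO (red, left) and CTRL (blue, right), with group mean and SD (n = 3 each) in black. KO 146 is the highest library for 8 genes and the lowest for Tln2, at 137 CPM, while Pxn lies between 119 and 137 CPM in all 6 libraries.

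Talins, which bind integrin tails, and vinculin, which talin recruits, gave both the highest positive value and the only negative one without overlap between the groups. Vcl encodes vinculin (ENSMUSG00000021823, chromosome 14, 20929398 to 21033676, plus strand). It stood at 67.6, 30.4 and 27.4 CPM in KO 146, 147 and 148, against 19.8, 16.9 and 18.2 CPM in CTRL 157, 162 and 163. Each library labelled KO was above each labelled CTRL, and KO 146 was far above the other 5. The log2 fold change was 1.19 (SE 0.35, edgeR adjusted p = 0.0892, range over 15 fits 0.00423 to 0.945). It fell to 0.65 (edgeR adjusted p = 0.00423) without KO 146. Without KO 148 it was 1.42 (edgeR adjusted p = 0.027), and DESeq2 gave 1.198 (adjusted p = 0.00708). Of the Vcl exon bases, 25.5% are shared with Ap3m1 on the opposite strand, a gene whose levels were 32.2 ± 2.23 CPM in the libraries labelled KO and 31.5 ± 1.36 CPM in those labelled CTRL (SD, n = 3 each).

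The paralogous talins had opposite signs. Tln1, the talin of most cell types (ENSMUSG00000028465, chromosome 4, 43531519 to 43562691, minus strand), stood at 440.5, 294 and 266 CPM in KO 146, 147 and 148 and at 262, 239 and 248 CPM in CTRL 157, 162 and 163. The groups did not overlap, but KO 148 was close to CTRL 157. Its log2 fold change was 0.42 (SE 0.20, edgeR adjusted p = 0.208), and 0.156 without KO 146. Tln2, the talin abundant in muscle, brain and kidney (ENSMUSG00000052698, chromosome 9, 67217087 to 67559703, minus strand), stood at 137, 172 and 207 CPM in KO 146, 147 and 148 and at 240.0, 226 and 228 CPM in CTRL 157, 162 and 163. All 3 libraries labelled KO were below all 3 labelled CTRL, and KO 146 was lowest. The log2 fold change was -0.43 (SE 0.15, edgeR adjusted p = 0.129, range over 15 fits 0.0317 to 0.944). It was -0.29 without KO 146 and -0.58 without KO 148, with edgeR adjusted p = 0.0478 and 0.0317.

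Genes of the ILK, PINCH and parvin complex and of kindlin-2 all had positive values. Fermt2, which encodes kindlin-2, the kindlin that co-activates integrins with talin in epithelial and mesenchymal cells (ENSMUSG00000037712, chromosome 14, 45458795 to 45530118, minus strand), was next to Vcl in size. It stood at 181, 108 and 94.0 CPM in KO 146, 147 and 148, against 83.2, 77.8 and 81.6 CPM in CTRL 157, 162 and 163. The groups did not overlap, and KO 148 was the nearest to the libraries labelled CTRL. Its log2 fold change was 0.66 (SE 0.24, edgeR adjusted p = 0.131, range over 15 fits 0.021 to 0.441), and 0.31 without KO 146 (edgeR adjusted p = 0.021). Without KO 148 it was 0.83 (edgeR adjusted p = 0.0387).

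Parva encodes alpha-parvin, the actin-binding subunit of the complex (ENSMUSG00000030770, chromosome 7, 112427505 to 112591692, plus strand). Its levels were 327, 235 and 221 CPM in KO 146, 147 and 148 and 198, 192 and 178 CPM in CTRL 157, 162 and 163, without overlap. The log2 fold change was 0.46 (SE 0.16, edgeR adjusted p = 0.123, range over 15 fits 0.0368 to 0.921), and 0.26 without KO 146 (edgeR adjusted p = 0.0368). Lims1, which encodes the LIM-domain adaptor PINCH1 (ENSMUSG00000019920, chromosome 10, 58323466 to 58424691, plus strand), stood at 79.5, 56.4 and 51.4 CPM in KO 146, 147 and 148 and at 51.4, 50.2 and 48.0 CPM in CTRL 157, 162 and 163. KO 148 and CTRL 157 were level. The log2 fold change of Lims1 was 0.33 (edgeR adjusted p = 0.237), and 0.11 without KO 146.

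Ilk encodes the integrin-linked pseudokinase at the centre of the complex (ENSMUSG00000030890, chromosome 7, 105736592 to 105742925, plus strand). It was counted at 12.25, 8.42 and 8.71 CPM in KO 146, 147 and 148 and at 8.50, 7.06 and 7.70 CPM in CTRL 157, 162 and 163, and the groups overlapped. The log2 fold change was 0.34 (SE 0.18, edgeR adjusted p = 0.252), and 0.135 without KO 146. Of its 2744 exon bases, 2461 (89.7%) are also exon of Taf10 or Rrp8 on the opposite strand in GENCODE M21, which leaves 283 bases of its own. The sources used here do not give the strand setting of the counting, and reads over shared bases cannot be assigned to Ilk where strand is not used. Taf10 stood at 77.2 ± 12.3 CPM in the libraries labelled KO and 87.7 ± 3.50 CPM in those labelled CTRL (SD, n = 3 each).

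Levels of different genes were compared per kilobase of annotated exon. Tln1 was highest, at 34.0 ± 9.58 CPM per kilobase in the libraries labelled KO and 25.5 ± 1.21 in those labelled CTRL (SD, n = 3 each). In the libraries labelled CTRL, Parva followed at 18.7 ± 0.999 CPM per kilobase, then Fermt2 at 15.6 ± 0.533 and Pxn at 15.4 ± 1.16, which did not differ beyond their spread. Tln2, Lims1, Zyx and Ptk2 came next, at 12.6, 10.2, 8.29 and 4.06 CPM per kilobase in the same libraries. Ilk and Vcl had the lowest values, at 3.57 and 5.10 CPM per kilobase in the libraries labelled KO and 2.83 and 2.23 in those labelled CTRL. Divided by the bases that no other gene shares, Ilk was at 34.6 and Vcl at 6.85 CPM per kilobase in the libraries labelled KO, against 27.4 and 3.00 in those labelled CTRL. The place of Ilk, among the lowest or close to Tln1, thus depended on the exon length used as divisor. The counts were the same in both cases. Values on unshared bases are too high if reads over shared bases were counted, which the unknown strand setting leaves unsettled.

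Focal adhesion kinase, paxillin and zyxin had smaller fold changes than vinculin and kindlin-2. Ptk2 encodes focal adhesion kinase, which with Src phosphorylates paxillin and p130Cas (ENSMUSG00000022607, chromosome 15, 73205102 to 73423280, minus strand). It stood at 82.5, 57.2 and 52.02 CPM in KO 146, 147 and 148 and at 49.1, 45.5 and 49.0 CPM in CTRL 157, 162 and 163. The groups did not overlap, and the log2 fold change was 0.42 (SE 0.17, edgeR adjusted p = 0.168). Without KO 146 it was 0.18.

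Pxn encodes paxillin, the scaffold to which bPIX is linked through the GIT proteins (ENSMUSG00000029528, chromosome 5, 115506676 to 115555987, plus strand). It was at 121, 119 and 122 CPM in KO 146, 147 and 148, against 137, 121 and 120.3 CPM in CTRL 157, 162 and 163. The libraries labelled KO lay within the range of those labelled CTRL or just under it. The log2 fold change was -0.065 (SE 0.085, edgeR adjusted p = 0.639), and 0.074 when libraries were scaled by total counts alone. Zyx encodes zyxin, a LIM protein that moves to strained actin fibres (ENSMUSG00000029860, chromosome 6, 42349630 to 42360213, plus strand). Its levels were 65.8, 54.3 and 47.3 CPM in KO 146, 147 and 148 and 45.9, 41.2 and 47.0 CPM in CTRL 157, 162 and 163. KO 148 and CTRL 163 were almost level, and the log2 fold change was 0.32 (SE 0.13, edgeR adjusted p = 0.167). Without KO 146 it was 0.175.

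**Figure D2:**
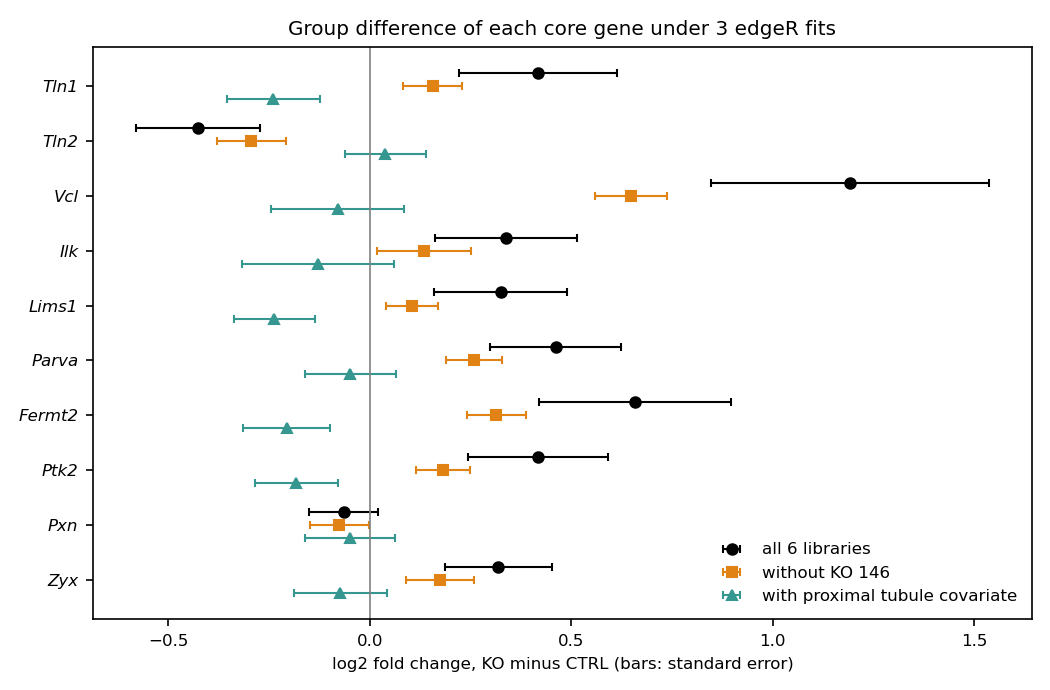
Log2 fold change (KO minus CTRL labels) of each core gene with standard errors, from edgeR on all 6 libraries (black), without KO 146 (orange) and with the proximal tubule marker mean as a covariate (green). Vcl has 1.19, 0.65 and -0.079 under these fits and Tln2 has -0.43, -0.29 and 0.039.

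Without KO 146, edgeR called Vcl, Parva and Fermt2 higher and Tln2 lower, 3 and 1 of the 10, among 10.5% and 6.62% of all genes called in these directions. Without KO 148, Vcl and Fermt2 were called higher and Tln2 lower, among 12.9% and 5.40% of all genes. Without KO 147, edgeR called 0 core genes and 0.0115% of all genes, and at an unadjusted p below 0.05 there were 3 core genes higher, with 15.9% of all genes. Without CTRL 157, 162 or 163 it called 0 core genes as well, and 0.0114%, 0.0171% or 0.0569% of all genes, with 1 core gene higher at an unadjusted p below 0.05 each time, where 11.2%, 12.5% or 12% of all genes were. Once the proximal tubule marker mean of each library was a covariate, 9 of the 10 values were negative, the median was -0.10 and edgeR called 0, against 1.62% of all genes, with 1 at an unadjusted p below 0.05 (Lims1, lower, as were 6.5% of all genes). With the endothelial and mesangial marker means as the covariate, the median was -0.087 and 0 were called, against 1.84% of all genes, again with Lims1 alone below 0.05 unadjusted, where 6.4% of all genes were lower. A list of 13 macrophage and blood markers overlapped between the groups for all 13, as did 10001 of the 17086 tested genes. The means of this list were 2.84, 2.86 and 2.51 log2 CPM in KO 146, 147 and 148 and 2.91, 3.00 and 2.32 in CTRL 157, 162 and 163.

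**Figure D3:**
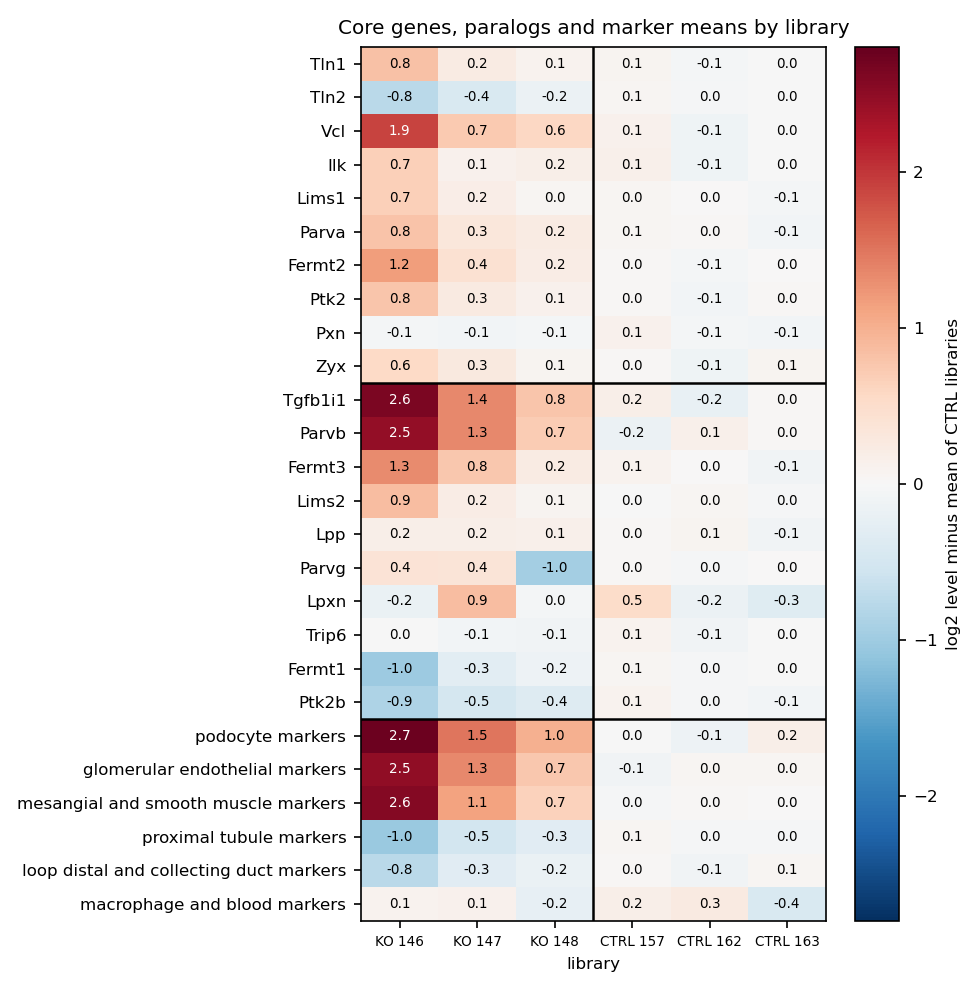
Log2 level in each library (columns, KO left) minus the mean of the libraries labelled CTRL, for the core genes, their paralogs (both log2 CPM) and the means of marker lists (log2 CPM with a prior count of 2). Red is higher and blue lower, and KO 146 has the deepest colours among the core genes and among the podocyte, endothelial, mesangial and tubule marker means.

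Set against the endothelial and mesangial marker mean, 9 of the 10 genes were lower in every library labelled KO than in any labelled CTRL (exact two-sided permutation p = 0.1 each, the smallest that 3 against 3 allows), a share near the 84.8% of all tested genes that were. Set against the podocyte marker mean all 10 were, with 90.2% of all tested genes. Vcl overlapped against the endothelial and mesangial mean, with -1.36, -1.21 and -0.83 log2 units relative to it in KO 146, 147 and 148 and -0.54, -0.86 and -0.74 in CTRL 157, 162 and 163 (difference -0.42, exact permutation p = 0.2). Against the podocyte mean Vcl differed by -0.68 without overlap (exact permutation p = 0.1). Against the endothelial and mesangial mean the difference was -0.89 for Fermt2, -1.04 for Parva and -1.55 for Pxn (-1.028 without KO 146). Tln2 had the largest difference of the 10, -1.93, with 1.02 log2 units in the libraries labelled KO and 2.95 in those labelled CTRL, and was -1.254 without KO 146. Relative to the proximal tubule marker mean the direction was the opposite. Every core gene was higher in the libraries labelled KO without overlap, with differences from 0.18 for Tln2 to 1.69 for Vcl. The share of all tested genes that were so was not computed. Tln2, with the smallest difference, was at -1.78, -1.99 and -1.91 log2 units in KO 146, 147 and 148. It was at -2.07, -2.09 and -2.07 in CTRL 157, 162 and 163.

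The profiles of the core genes across the 6 libraries were compared by the root mean squared difference of mean-centred log2 CPM. Tln1 and Ptk2 were the closest pair, at 0.031 log2 units, and Vcl and Tln2 the farthest, at 0.952. Among 10862 other protein-coding genes averaging 5 CPM or more, Clic5 (0.0514) and P2ry1 (0.0622) lay nearest to Vcl, Scamp5 (0.0161) and Mthfd1 (0.0204) to Tln2, and Sept7 (0.0177) and Vasp (0.0259) to Fermt2. The nearest to Tln1 were Slc12a2 and Nedd4, to Parva Top1mt, to Lims1 Ppp1r2 and Otud7b, to Ilk Clip1 and Dgcr8, to Ptk2 Leprot and Ktn1, to Pxn Abcf3 and Txlng, and to Zyx Tpst2 and Nup133, at 0.0162 to 0.0382. These distances over 6 libraries describe likeness and carry no test. Among the marker means, the mesangial list (0.274) and the glomerular endothelial list (0.291) lay nearest to Vcl. The lists of distal nephron and collecting duct (0.0595) and of the proximal tubule (0.109) lay nearest to Tln2. The macrophage and blood list lay nearest to Tln1, Zyx, Parva, Ilk, Lims1, Fermt2 and Ptk2, at 0.286 to 0.444, and the parietal epithelial list nearest to Pxn (0.0957). Both lists differed little between the libraries labelled KO and CTRL. Their means were 2.74 and 2.75 log2 CPM for macrophage and blood and 3.25 and 3.41 for parietal epithelial markers. Nearness to such flat profiles does not show a likeness to these cell types.

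Paralogs of the core genes fell on both sides of 0, and edgeR called 0 of 10 (median 0.19). At an unadjusted p below 0.05, 3 were higher and 1 lower, with 17.5% and 11.8% of all genes. Tgfb1i1, the paxillin relative Hic-5, had 40.2, 16.6 and 11.2 CPM in KO 146, 147 and 148 and 7.34, 5.67 and 6.62 CPM in CTRL 157, 162 and 163. All libraries labelled KO were above those labelled CTRL, at a log2 fold change of 1.795 (SE 0.46, edgeR adjusted p = 0.0787), where paxillin itself had -0.065. Without KO 146 Tgfb1i1 had 1.076 (edgeR adjusted p = 0.00927), and with the proximal tubule or the endothelial and mesangial covariate 0.053 or 0.1. Parvb, which encodes beta-parvin, had 47.7, 22.1 and 14.1 CPM in KO 146, 147 and 148 and 7.78, 9.53 and 8.83 CPM in CTRL 157, 162 and 163 (log2 fold change 1.68, SE 0.43, edgeR adjusted p = 0.0781). It had 1.045 without KO 146 (edgeR adjusted p = 0.014), and 0.048 or 0.102 with these covariates. DESeq2 called Tgfb1i1, Parvb and Fermt3, the kindlin of blood cells, higher, and Ptk2b lower, while it called 11.7% of all genes higher and 5.65% lower. Fermt3 had a log2 fold change of 0.84 and Lims2, which encodes PINCH2, of 0.425 (edgeR adjusted p = 0.107 and 0.214), and 0.503 and 0.136 without KO 146.

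Ptk2b and Fermt1 resembled Tln2 in sign. Ptk2b, which encodes the focal adhesion kinase relative PYK2, stood at 36.2, 47.1 and 51.5 CPM in KO 146, 147 and 148, against 70.8, 64.7 and 62.6 CPM in CTRL 157, 162 and 163, without overlap. Its log2 fold change was -0.56 (SE 0.14, edgeR adjusted p = 0.0772, range over 15 fits 0.00729 to 0.578). The value ran from -0.669 to -0.124 over these fits. Without KO 146, without KO 148 and without the filter edgeR called Ptk2b lower, as it did 6.62%, 5.40% and 1.31% of all genes. Fermt1, which encodes kindlin-1, the kindlin of epithelia, stood at 20.5, 33.8 and 37.3 CPM in KO 146, 147 and 148 and at 42.9, 40.5 and 41.0 CPM in CTRL 157, 162 and 163 (log2 fold change -0.44, edgeR adjusted p = 0.213, and -0.23 without KO 146). The proximal tubule marker mean was the nearest marker profile to both, at 0.0788 for Ptk2b and 0.0869 for Fermt1. The distal nephron and collecting duct list was almost as near, at 0.102 and 0.11. The zyxin relatives Trip6 and Lpp had -0.066 and 0.15, and the leukocyte genes Parvg and Lpxn, the least abundant of the paralogs, had 0.045 and 0.23, with overlap.

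A ratio of 2 genes within a library does not depend on library scaling, and 10 such ratios were formed from counts per kilobase of exon. The Tln2 to Tln1 ratio was 0.166, 0.314 and 0.416 in KO 146, 147 and 148, against 0.489, 0.504 and 0.492 in CTRL 157, 162 and 163. The log2 ratio had an SD of 0.02 among the libraries labelled CTRL, and all libraries labelled KO were lower (log2 difference -0.83, exact two-sided permutation p = 0.1, Benjamini-Hochberg adjusted over the 10 ratios 0.143). Without KO 146 the difference was -0.455. The Fermt1 to Fermt2 ratio was 0.103, 0.285 and 0.361 in KO 146, 147 and 148 and 0.470, 0.475 and 0.457 in CTRL 157, 162 and 163. The Ptk2b to Ptk2 ratio was 0.70, 1.31 and 1.58 in KO 146, 147 and 148 and 2.30, 2.27 and 2.04 in CTRL 157, 162 and 163, so that Ptk2 was the higher of the pair in KO 146 alone. The log2 differences of these pairs were -1.09 and -0.96, and without KO 146 -0.543 and -0.611. In each of these 3 families the talin, kindlin or kinase with a positive fold change took a larger part in each library labelled KO than in any labelled CTRL. This follows from the levels given above and is no separate result. In all 3 pairs the first gene was lower and the second higher in the libraries labelled KO, without overlap.

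The Tgfb1i1 to Pxn ratio was 0.487, 0.204 and 0.135 in KO 146, 147 and 148 and 0.0785, 0.0686 and 0.0808 in CTRL 157, 162 and 163. The Parvb to Parva ratio was 0.335, 0.216 and 0.147 in KO 146, 147 and 148 and 0.0905, 0.114 and 0.114 in CTRL 157, 162 and 163. Vcl to Tln1 and Trip6 to Zyx did not overlap either, with log2 differences of 0.69 and -0.37. By the exact permutation test these 7 ratios reached p = 0.1 (adjusted 0.143), the smallest value possible with 3 against 3. How often ratios of other gene pairs separate was not computed. Of all tested genes taken singly, 41.5% did not overlap in either direction. Of the other 3 ratios, Lims1 to Ilk differed by -0.02 on the log2 scale (exact permutation p = 0.9, adjusted 0.9), Parva to Ilk by 0.12 (p = 0.3, adjusted 0.333) and Lims2 to Lims1 by 0.08 (p = 0.2, adjusted 0.25, and 0.031 without KO 146), and in all 3 the groups overlapped. The ratios to Ilk were formed on all its exon bases, 89.7% of which are shared with other genes.

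**Figure D4:**
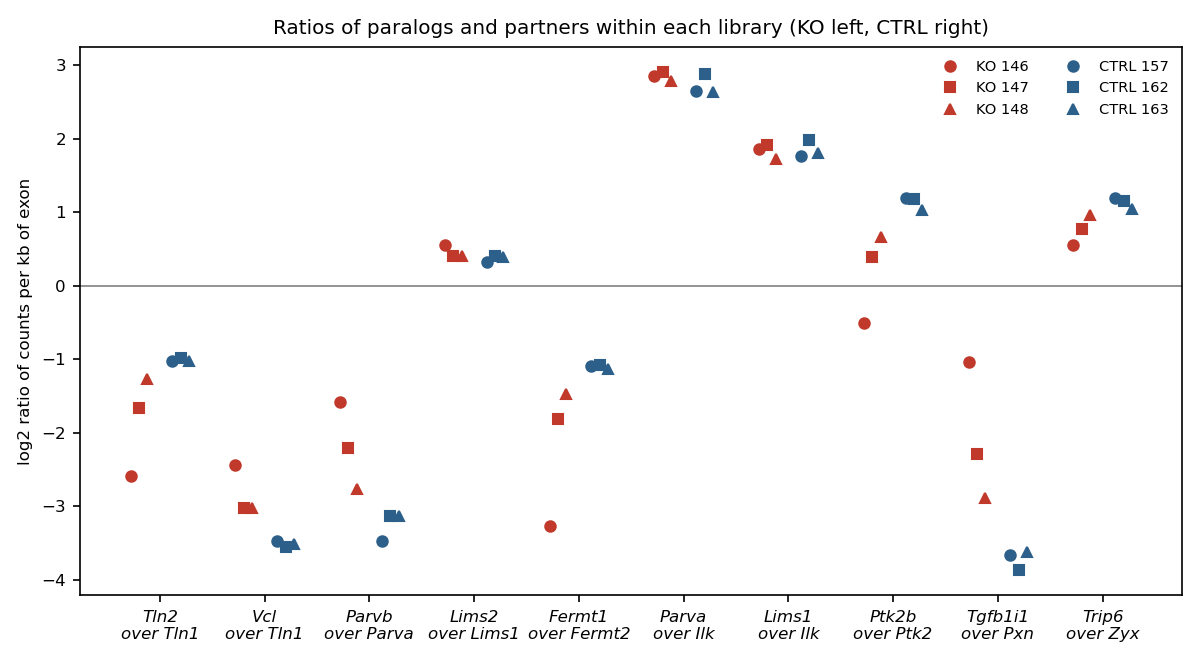
Log2 ratio of counts per kilobase of exon for 10 gene pairs in each library (KO red and left, CTRL blue and right within each pair). The groups do not overlap for 7 pairs, among them Tln2 over Tln1 (means -1.84 and -1.02), and overlap for the 3 pairs Lims2 over Lims1, Parva over Ilk and Lims1 over Ilk. The share of other gene pairs without overlap was not computed. Ratios to Ilk use all its exon bases, 89.7% of which other genes share.

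A wider list of 48 adhesion genes in 4 arms, all of which passed the filter, was read from the same fit. Of these 42 had positive values, with a median of 0.34, and edgeR called 0. Without KO 146 the median was 0.147, and edgeR called 16 higher and 1 lower, with 10.5% and 6.62% of all genes. With the proximal tubule covariate 37 of the 48 were negative (median -0.145), and with the endothelial and mesangial covariate 36 were (median -0.112). On all 6 libraries 25 were higher and 1 was lower at an unadjusted p below 0.05, with 17.5% and 11.8% of all genes. The libraries labelled KO lay above those labelled CTRL for 29 and below for 1, with 21.9% and 19.6% of all genes. DESeq2 called 15 higher and 1 lower, with 11.7% and 5.65% of all genes. In the arm of actinin, zyxin and VASP the median was 0.59 (0.332 without KO 146), with 11 of 16 higher at an unadjusted p below 0.05. Evl, which like VASP promotes actin filament growth, had 29.3, 25.4 and 19.7 CPM in KO 146, 147 and 148 and 14.01, 13.8 and 13.9 CPM in CTRL 157, 162 and 163 (log2 fold change 0.84, SE 0.15, edgeR adjusted p = 0.0624). It kept a positive value under each of the 15 fits, from 0.39 to 0.99, with edgeR, DESeq2 or limma-voom adjusted p from 0.000223 to 0.264. Fblim1, which encodes the filamin and kindlin partner migfilin, had a log2 fold change of 1.71, and Pdlim7, which encodes a LIM protein of actin fibres, had 1.15 (edgeR adjusted p = 0.0812 and 0.0909), and without KO 146 they had 1.009 and 0.666.

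In the arm of talin and vinculin the tensins, which bind integrin tails and actin, differed in sign. Tns3 had 616, 300.3 and 228 CPM in KO 146, 147 and 148 and 160.0, 166 and 163 CPM in CTRL 157, 162 and 163 (log2 fold change 1.23, SE 0.35, edgeR adjusted p = 0.0875). Tns2 had a log2 fold change of 1.12 (edgeR adjusted p = 0.0952). Without KO 146 Tns3 had 0.689 and Tns2 0.603. Tns1 had 878, 909 and 989 CPM in KO 146, 147 and 148 and 1335, 1207 and 1193 CPM in CTRL 157, 162 and 163 (log2 fold change -0.43, SE 0.12, edgeR adjusted p = 0.0827), the gene of the 48 that was lower without overlap. Tns1 stayed negative under each of the 15 fits, from -0.48 to -0.29, and both DESeq2 and edgeR without KO 146 called it lower. In the arm of focal adhesion kinase and paxillin, with a median of 0.27 (0.133 without KO 146), the Src family kinase Fyn had 1.75, the phosphatase Ptpn12 had 0.60 and the phosphatidylinositol kinase subunit Pik3r1 had 0.41 (edgeR adjusted p = 0.077, 0.144 and 0.123). Without KO 146 they had 1.084, 0.282 and 0.231. In the ILK, PINCH and kindlin arm, with a median of 0.34 (0.071 without KO 146), Kank2, which encodes a talin-binding protein, had 1.02, Nck2, an adaptor that binds PINCH, had 0.70 and Rsu1, a PINCH1 partner, had 0.42 (edgeR adjusted p = 0.0946, 0.082 and 0.258). Without KO 146 they had 0.558, 0.456 and 0.105. Over the 15 fits Fyn ran from 0.079 to 2.06 and Nck2 from 0.069 to 0.858, with adjusted p up to 0.798 and 0.859. Glomerular marker means were higher and tubule marker means lower in the same libraries, and their part in these values was not tested beyond the covariate fits.

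**Figure D5:**
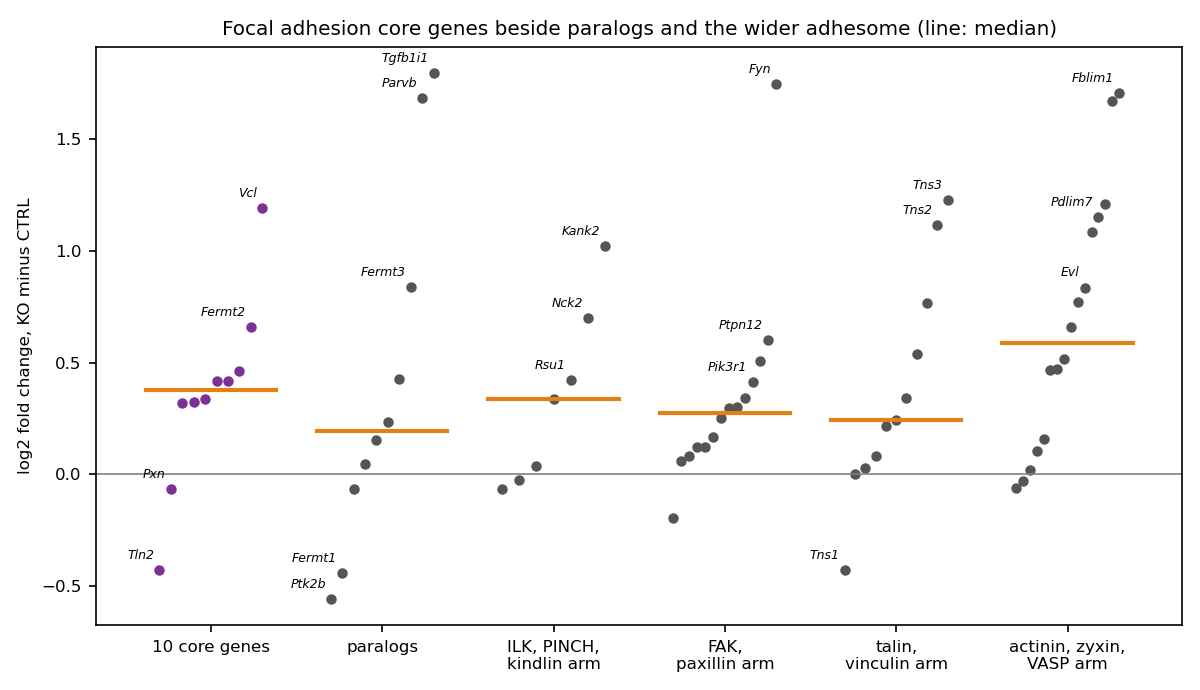
Log2 fold change (KO minus CTRL labels) of the core genes (purple), their paralogs and the 4 arms of the wider adhesion list (grey), each point 1 gene and the orange line the median of its list. Medians run from 0.19 for the paralogs to 0.59 for the actinin, zyxin and VASP arm, and Tln2, Ptk2b, Fermt1 and Tns1 lie below -0.4.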

How the data were processed

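RNA was measured in 6 libraries of isolated glomeruli, 3 labelled KO and 3 labelled CTRL. The authors deposited unnormalized whole-number counts of reads for each gene, in 1 file per library. The submitters' processing notes name DESeq2, HTSeq 0.11.1, STAR 2.6.0 and fastp 0.19.5. The build they name, GRCh37, is human although the identifiers are those of mouse Ensembl genes, so the alignment build is uncertain. The sources used here give neither strand setting nor annotation release. The 5 closing lines that name no gene were left out, and reads that aligned to more than 1 place (22.51% to 29.63% of records) are absent from the gene counts.

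Names and positions came from GENCODE M21 on GRCm38, which named 54809 of 54838 identifiers, and promoters from RefSeq on GRCm38.p6. Counts were tested with edgeR 4.0.16 in R 4.3.3, with TMM scaling, filterByExpr at a minimum count of 10 and a robust quasi-likelihood fit, with Benjamini-Hochberg adjustment across the tested genes and calls below 0.05. The fits were tested on simulated data with equal spread in both groups. Here the libraries labelled KO differed more among themselves than those labelled CTRL, a setting that the simulation does not check. CPM are counts scaled by TMM library sizes, and log2 CPM used a prior count of 2. Standard errors were derived from the fold change and its F statistic. Alternatives were DESeq2 1.42.0 and limma-voom 3.58.1 on the same genes, other scaling, no filter, a fit without robust, marker means as covariates, each library left out, a prior count of 0.5 and a pseudocount of 1 count in ratios. Ratios and marker-relative levels were compared by exact two-sided permutation of libraries.

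The core genes, gene lists and tests were chosen with earlier results of these data known. Named genes were all 10 core genes, 10 paralogs, the 3 smallest p of each arm of the adhesion list, the 2 nearest profiles to each core gene, of which 1 is not reported here, and Arhgef7. Overlapping genes, library markers and Lims1 under the covariates were added after values were seen. No 2 libraries of a group were copies, since the chi-square per degree of freedom between them was 16.7 or more. P values measure the spread between libraries, each number in a title being read as 1 animal, which the titles do not state.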

Additional observations from a re-analysis of the deposited data

How the results depend on the processing

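No paired analysis was possible because the groups share no replicate numbers. Over all genes edgeR called 173, DESeq2 2959, edgeR without a filter on low counts 960, and edgeR with the proximal tubule or the endothelial and mesangial covariate 277 or 315. Leaving out 1 library gave 2 to 3211 calls over all genes, 2974 without KO 146, 3211 without KO 148, 2 without KO 147, and 2, 3 and 10 without CTRL 157, 162 and 163. Among the core genes the main count of 0 became 1 with DESeq2 and 0 to 4 with 1 library left out, with 4 calls without KO 146 and 3 without KO 148. Among the paralogs and the wider adhesion list the count of 0 became 20 with DESeq2, 2 without the filter and 0 to 21 with 1 library left out, with 20 calls without KO 146 and 21 without KO 148. The cause of these shifts was not tested.

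The median of the core genes turned to -0.103 with the proximal tubule covariate and -0.087 with the endothelial and mesangial covariate. With these covariates, in that order, the log2 fold changes became -0.079 and -0.031 for Vcl, -0.239 and -0.218 for Tln1, 0.039 and 0.02 for Tln2, -0.073 and -0.063 for Zyx, -0.048 and -0.031 for Parva, -0.128 and -0.112 for Ilk, -0.237 and -0.218 for Lims1, -0.206 and -0.175 for Fermt2, and -0.182 and -0.16 for Ptk2. Among paralogs they became -0.767 and -0.787 for Parvg, -0.307 and -0.277 for Lims2, 0.273 and 0.237 for Fermt1, and -0.075 and -0.06 for Fermt3. In the wider list they became -0.15 and -0.108 for Kank2, -0.355 and -0.332 for Rsu1, -0.056 and -0.037 for Pik3r1, -0.242 and -0.212 for Ptpn12, -0.118 and -0.071 for Tns3, -0.172 and -0.118 for Tns2, -0.084 and -0.055 for Pdlim7, and -0.021 with the proximal tubule covariate for Fblim1. Arhgef7 had -0.419 and -0.394, and -0.068 to 0.278 with 1 library left out, the lowest without KO 146. Only named genes whose sign turned are listed here. Others kept their sign, among them Fyn and Nck2, whose lowest values over the 15 fits were 0.079 and 0.069. The marker means differ between the groups without overlap, so group and covariate cannot be told apart in these fits.

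Scaling by library totals moved the median of all genes from -0.006 to 0.132 and turned Pxn to 0.074 and Trip6 to 0.075. Parvg was -0.063 with limma-voom and -0.179 (without KO 146) to 0.361 with 1 library left out, being -0.128 without KO 147, and Lpxn was -0.163 (without KO 147) to 0.53. The Lims1 to Ilk difference ran from -0.067 to 0.05 with 1 library left out and was positive without KO 148 (0.033) and CTRL 162 (0.05). RLE scaling, the fit without robust, the prior count and the pseudocount turned no direction and changed no call of a named gene. Vcl had the largest standard error of the core genes and Ilk the fewest counts.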
